A study of Mus musculus with 6 samples.

Results

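The aminoacyl-tRNA synthetases are the enzymes that join each amino acid to its transfer RNA, and their messenger RNAs were followed here in livers lacking Pdss2 in hepatocytes. The genes were 20 cytosolic synthetase genes, 15 genes of mitochondrial synthetases and the scaffold genes Aimp1 and Aimp2, chosen by their symbols as every probe set annotated to exactly 1 of them. Of these 37 genes, 36 were measured, among 18194 genes in all, by 74 of the 34958 probe sets with 1 symbol. They comprised 19 cytosolic genes with 40 probe sets, 15 mitochondrial genes with 31 and 2 scaffold genes with 3. Dars was not analysed here, since its symbol stands beside no probe set of the annotation. A further probe set, shared by Aars and Exosc6, was set aside.

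The mutants were 3 male B6.Alb/cre,Pdss2loxP/loxP mice aged 176, 178 and 224 days, and the controls were 3 male B6.Pdss2loxP/loxP mice aged 209, 213 and 140 days. All 6 mice carried loxP-flanked Pdss2, and the mutants alone carried cre recombinase under the albumin promoter, which is active in hepatocytes. Total RNA of whole liver from each mouse was hybridized to 1 Affymetrix mouse array. The genotypes were caged apart, so cage and genotype cannot be told apart, and control 1 was named the concurrent control of mutant 3. Each difference is the mutant mean less the control mean of log2 values, so that 1 log2 unit is a doubling of the signal in mutants. Directions follow the sample labels. The median difference of the cytosolic synthetases was negative, whereas the study described its aminoacyl-tRNA pathway as upregulated. The study scored a whole pathway list by gene set enrichment, which is another measure on another set of genes. Whether every array matches its label was not tested.

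Cytosolic synthetases charge the transfer RNAs that feed the ribosomes of the cytosol, and nuclear genes encode a separate set for the ribosomes inside mitochondria, which make the core membrane subunits of the respiratory chain. Glycine and lysine are exceptions, since Gars and Kars serve both compartments. Several cytosolic synthetases, among them those for glutamate and proline (joined in Eprs), glutamine, methionine and leucine, are held with the scaffold proteins in the multisynthetase complex. When amino acids run short or mitochondria are stressed, the transcription factor ATF4, paired with C/EBP proteins, raises many cytosolic synthetase genes through a short promoter element. These statements are background and are not results of these arrays.

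The core of that element, TGATGNAA, was searched on both strands of the RefSeq promoters of build GRCm38.p6, from 250 bases before to 50 bases after each gene's start, and no other motif was searched. Promoters were matched for 28 of the 36 genes. The motif lay in the promoter of 5 of 12 matched cytosolic genes, in that of 0 of 14 matched mitochondrial genes and in 3.97% of all 32851 promoters of that length. These matches are shown because they mark which of the 12 matched cytosolic genes hold this core sequence in the window. The match is in capitals with 11 bases on either side, 5′ to 3′ along each gene's own strand.
Aars: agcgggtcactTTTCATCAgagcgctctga
Gars: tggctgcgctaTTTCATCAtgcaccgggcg
Iars: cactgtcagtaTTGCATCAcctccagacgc
Tars: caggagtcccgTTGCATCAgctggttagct
Yars: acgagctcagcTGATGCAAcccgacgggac

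The window of Aars lies at chr8:111033840-111033869, that of Gars at chr6:55037960-55037989, that of Iars at chr13:49682126-49682155 and that of Yars at chr4:129189895-129189924, all on the plus strand. The window of Tars lies at chr15:11399655-11399684 on the minus strand. The first base of the match lay 30 bases before the start in Gars and 15 before it in Tars. In Iars, Yars and Aars it lay just past the start, at positions 8, 4 and 10 with the start counted as 1. A match to 8 letters is a description and not a binding site. Promoters of Cars, Hars, Lars, Nars, Rars, Vars, Wars and Hars2 were not matched.

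Some properties of the arrays bear on every value. Array medians were 6.12, 6.24 and 6.19 for mutants 1 to 3, against 5.92, 6.03 and 6.12 for controls 1 to 3, and the median difference over all genes was 0.17. Of all genes, 895 were higher and 748 lower in mutants past an adjusted p of 0.05 from limma, which became 455 and 911 when each array was centred on its median. Mutant 2 and control 3 shared a pattern that the groups do not explain: their deviations from their group means correlated at 0.61 over genes, and they were the 2 highest arrays on 16.2% of the synthetase probe sets and on 19.9% of all probe sets with 1 symbol. The brightest of the 3 Pdss2 probe sets read 6.94, 6.88 and 7.05 in mutants and 7.46, 7.47 and 7.56 in controls (difference -0.54, adjusted p = 0.0792 from limma). The others differed by 0.40 and 0.35 with overlapping groups. Since their positions relative to the deleted exon were not at hand, these sets do not check the genotype. Hepatocyte markers were abundant in every liver, with Alb at 14.20, 13.65 and 13.40 in mutants and 13.91, 14.04 and 14.06 in controls.

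Among the cytosolic synthetases, read by the brightest probe set of each gene, Qars and Eprs were higher in mutants and Mars1, Lars and Gars were lower. For Qars and Eprs another probe set of the same gene was lower in every mutant, and neither gene was called on the mean of all its sets (0.35 for Qars and 0.36 for Eprs). Thus 2 of 19 cytosolic genes (10.5%) rose, where 4.92% of all genes were called higher, and 3 of 19 (15.8%) fell, where 4.11% of all genes were called lower. Both directions together took 26.3% of the cytosolic genes and 9.03% of all genes. In whole liver, fewer cells of a type and less RNA per cell cannot be told apart. The smallest p that exact permutation of 3 mice against 3 allows for a single gene is 0.1, which each of these 5 genes reached.

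Qars, which encodes glutaminyl-tRNA synthetase, had log2 values of 11.50, 12.16 and 12.45 in mutants, against 9.17, 9.78 and 10.23 in controls. All mutants lay above all controls, with a gap wider than the spread within either group. The difference was 2.31 (standard error 0.34, adjusted p = 0.0185 from limma), or 497% of the control level. The ending _x_at of this probe set, 1456213_x_at, is the maker's mark for a set with some probes that may also match other sequences, and the part of this in the value was not tested.

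Eprs, the bifunctional enzyme for glutamate and proline, read 11.44, 11.62 and 10.68 in mutants and 9.97, 9.74 and 9.47 in controls on its brightest probe set. Mutant 3 was the lowest of the mutants and still above every control. The difference was 1.52 (standard error 0.28, adjusted p = 0.0281), or 287% of the control level.

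Mars1 encodes methionyl-tRNA synthetase, which also charges the transfer RNA that starts every cytosolic protein. It read 8.01, 7.54 and 7.81 in mutants and 9.01, 8.69 and 8.89 in controls, with no overlap. The difference was -1.08 (standard error 0.20, adjusted p = 0.0288), which left 47.4% of the control level.

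Lars, the leucine enzyme, which in human cells also takes part in leucine sensing, read 6.81, 6.44 and 6.70 in mutants and 7.58, 7.53 and 7.71 in controls. The groups were apart by more than either spread, and the difference was -0.96 (standard error 0.19, adjusted p = 0.0304), or 51.4% of the control level. Gars, the glycine enzyme of both compartments, read 7.95, 7.22 and 7.17 in mutants and 8.67, 8.59 and 8.57 in controls. Mutant 1 lay nearest to the controls. The difference was -1.17 (standard error 0.25, adjusted p = 0.0351), or 44.6% of the control level.

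**Figure D1:**
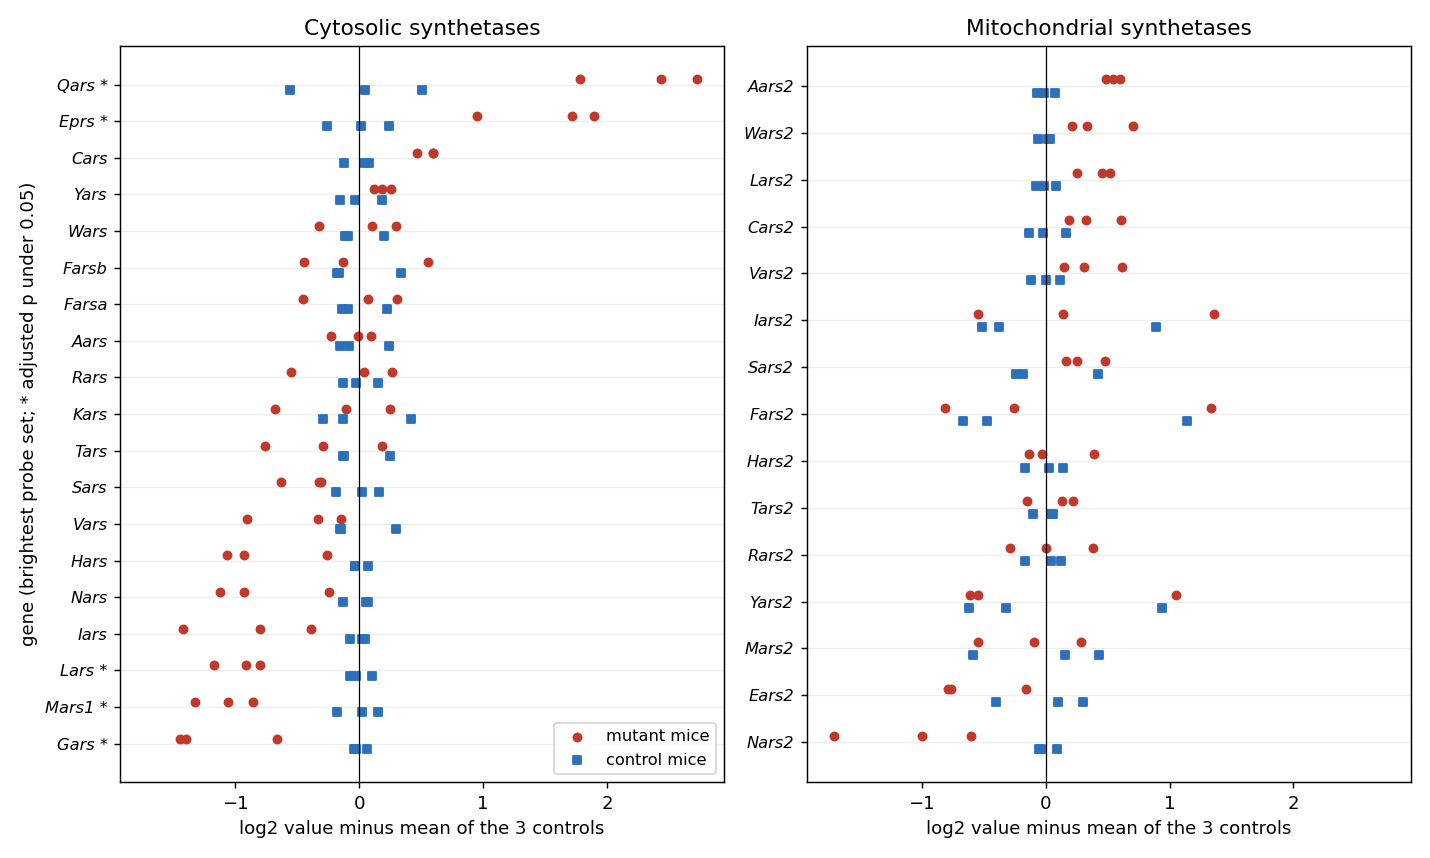
Log2 value of each synthetase gene in each mouse minus the mean of the 3 controls (horizontal axis), with 1 row per gene, mutants as red circles and controls as blue squares; cytosolic genes are on the left, mitochondrial genes on the right, and an asterisk marks an adjusted p under 0.05. Qars and Eprs stand to the right of all controls, Mars1, Lars and Gars to the left, and no mitochondrial gene has an asterisk.

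These calls rest on few arrays. Without mutant 1 all 5 were called, together with Hars, Iars and Nars, in a fit that called 16.6% of all genes. Without mutant 3 limma called Eprs alone of the cytosolic genes, and without control 3 Qars alone. Without mutant 2, control 1 or control 2 it called none of them. Then 8, 8 and 9 of the 19 cytosolic genes had an unadjusted p under 0.05, where 4487, 3986 and 3861 of all 18194 genes had one. In the same fits limma called 0.583%, 0.0275% and 0% of all genes. The differences themselves lay between 2.03 and 2.58 for Qars and between -1.42 and -1.03 for Gars. Their signs could not change, since the groups of the 5 genes did not overlap. Without both mutant 2 and control 3, a choice made after the values were seen, limma called none of the 5 genes. Their differences were then 2.50 for Qars, 1.21 for Eprs, -0.94 for Mars1, -0.80 for Lars and -1.07 for Gars. In this fit limma called 0.28% of all genes, and 7 cytosolic genes had an unadjusted p under 0.05, where 5356 of all genes had one.

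The 14 cytosolic genes that were not called had differences between -0.87 and 0.55. Iars, the isoleucine enzyme, read 7.71, 6.68 and 7.31 in mutants and 8.13, 8.15 and 8.04 in controls (-0.87, adjusted p = 0.0768). Nars, the asparagine enzyme, read 9.40, 8.52 and 8.71 in mutants and 9.70, 9.52 and 9.72 in controls (-0.77, adjusted p = 0.0901). Every mutant was below every control for both genes, but the mutants spread over about 1 log2 unit.

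Hars, for histidine, differed by -0.75 (adjusted p = 0.0857), and Sars, for serine, by -0.42 (adjusted p = 0.187), again with all mutants below all controls. Cars, the cysteine enzyme, was the third cytosolic gene with every mutant above every control, at 7.67, 7.79 and 7.79 in mutants and 7.08, 7.24 and 7.27 in controls (0.55, adjusted p = 0.0781). The remaining genes overlapped between the groups: Vars (-0.46), Tars (-0.29), Kars (-0.18), Rars (-0.08), Aars (-0.05), Farsa (-0.03), Farsb (-0.01), Wars (0.02) and Yars (0.19). For the 14 genes the 95% confidence interval reached a median of 0.57 to either side of the difference. That width is not the limit of the adjusted test, which left differences as large as -0.87 for Iars uncalled. With this number of arrays, differences of such size can be missed.

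Over the whole cytosolic group 5 differences were positive and 14 negative, where 64.3% of all genes had a positive one. The median difference was -0.18, against 0.17 over all genes. It was -0.34 with median centring and -0.12 with quantile normalization, where the medians of all genes were 0.01 and 0.06. In 10 of the 19 genes (52.6%) the groups did not overlap, as in 37.4% of all genes. All mutants were above in 3 of them, Qars, Eprs and Cars, where 23.3% of all genes were so, and below in 7, where 14.1% of all genes were so.

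Relative to each gene's own mean over the 6 arrays, the cytosolic median stood at 0.12, 0.03 and -0.42 in the mutants in order of their numbers, and at 0.02, -0.04 and 0.34 in the controls. Mutant 3 lay lowest and control 3 highest, and the other mutants were not below the other controls. Leaving out mutant 1 gave a group median of -0.39 and leaving out mutant 3 gave -0.075. It was -0.32 when control 1 was left out and -0.089 when control 3 was.

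Of the 5 cytosolic genes with the ATF4 element core in their matched promoter, Gars passed the test and the others did not. Of all genes 9.03% passed it. The differences were -0.05 for Aars, -1.17 for Gars, -0.87 for Iars, -0.29 for Tars and 0.19 for Yars. The matched promoters of Qars, Eprs and Mars1, which were called, held no match in this window. No promoter was matched for Lars, which was also called. The part of ATF4 in these values was not tested.

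**Figure D2:**
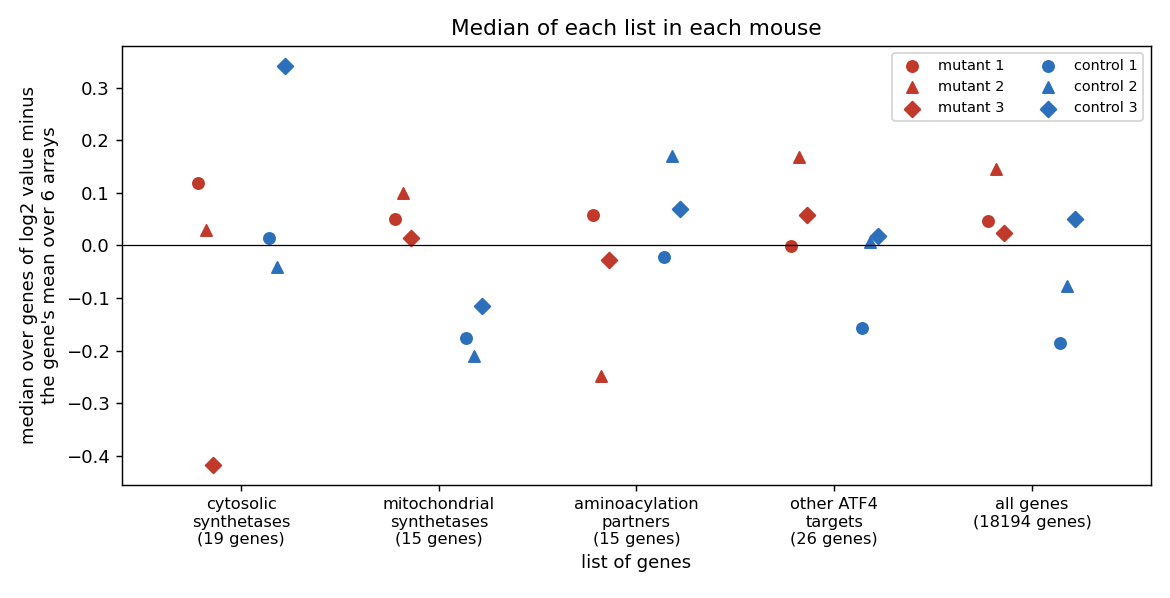
Median, over the genes of each list, of the deviation from the gene's mean log2 value over 6 arrays (vertical axis), for each mouse, with mutants in red left of controls in blue and the mouse number given by the marker shape. Mutant 3 (-0.42) and control 3 (0.34) stand apart for the cytosolic synthetases. The 3 mutants lie above the 3 controls for the mitochondrial ones, on arrays not centred on their medians. The median difference of the mitochondrial genes was 0.09, and that of all genes was 0.17.

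Among the mitochondrial synthetases no gene changed past the threshold in either direction, in 0 of 15 genes by limma. At an unadjusted p under 0.05 there were 2 higher and 1 lower, 20% of the group, where 31% of all genes lay under it, 18.4% higher and 12.6% lower. The differences were positive in 11 genes and negative in 4, where 64.3% of all genes had a positive one. Their median was 0.09, against 0.17 over all genes, and it fell below 0, to -0.072, with median centring. That centring left 7 positive and 8 negative differences. The median was 0.26 without mutant 1 or without mutant 3 and 0.42 without control 3. The groups did not overlap in 6 genes (40%), close to the 37.4% of all genes. All mutants were above in 5 of the 15 genes, where 23.3% of all genes were so, and below in 1, where 14.1% of all genes were so.

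Nars2, the mitochondrial asparagine enzyme, was nearest to the threshold. It read 6.80, 5.70 and 6.42 in mutants and 7.35, 7.50 and 7.37 in controls. The controls were tight and every mutant lay below them, by an amount that varied from mouse to mouse. The difference was -1.10 (standard error 0.29, adjusted p = 0.0521 from limma). Nars2 passed the test with median centring, with age as a covariate and with the trend and robust options. It also passed without mutant 1, where 16.6% of all genes were called, and among bright genes alone, where 24.1% were. Its second probe set, with values near 4 in all mice, differed by -0.09.

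Aars2, for alanine, read 7.69, 7.75 and 7.81 in mutants and 7.28, 7.20 and 7.14 in controls (0.54, adjusted p = 0.0773). Its values were tight within both groups, and it passed the test among bright genes alone, where 24.1% of genes were called. Lars2, for leucine, read 6.69, 6.96 and 6.89 in mutants and 6.36, 6.42 and 6.52 in controls (0.41, adjusted p = 0.161). Wars2 (0.42), Cars2 (0.37) and Vars2 (0.36) also had every mutant above every control, with adjusted p between 0.195 and 0.257. These 5 genes serve different amino acids.

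Ears2, whose product charges mitochondrial transfer RNA with glutamate, differed by -0.57 (adjusted p = 0.189) with overlapping groups. Of the rest, Sars2 (0.30), Tars2 (0.07), Hars2 (0.08), Rars2 (0.03) and Mars2 (-0.12) also overlapped. In Fars2, Iars2 and Yars2 the pattern of mutant 2 and control 3 was the main feature. Fars2, for phenylalanine, read 7.09, 8.68 and 6.53 in mutants and 6.87, 6.67 and 8.48 in controls (0.09, standard error 0.64). Iars2 read 7.01, 8.23 and 6.33 in mutants and 6.35, 6.49 and 7.76 in controls, and Yars2 read 5.80, 7.47 and 5.86 in mutants and 5.79, 6.09 and 7.35 in controls. In each of the 3 genes the same 2 livers, 1 of each genotype, were the highest, and by a wide margin. The same pair was highest on probe sets of Farsa, Farsb, Sars, Vars, Sars2 and Aimp2.

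Setting the enzymes side by side by amino acid gave 15 pairs. The cytosolic difference was below the mitochondrial one in 11 of 15 pairs, and in 11 with quantile normalization. Median centring shifts all differences by the same amount, so it cannot change the order within a pair. In 9 pairs the cytosolic difference was negative and the mitochondrial one positive, which became 10 with quantile normalization and 6 with median centring. The leucine pair was widest among these, at -0.96 for Lars and 0.41 for Lars2. The isoleucine pair followed at -0.87 for Iars and 0.32 for Iars2. These values are of the brightest probe sets. The second set of Iars2 differed by -0.70, with every mutant below every control. The other sets of Lars2 differed by -0.28 and 0.87.

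Asparagine was the amino acid for which both enzymes were well below 0, at -0.77 for Nars and -1.10 for Nars2. Cysteine was the pair with both above 0 by more than 0.3, at 0.55 for Cars and 0.37 for Cars2. The glutamate pair ran the other way from most on the brightest probe sets, at 1.52 for Eprs and -0.57 for Ears2. The other sets of Eprs differed by 1.48, -0.35 and -1.19, the last with every mutant below every control. No difference between the enzymes of a pair was tested.

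**Figure D3:**
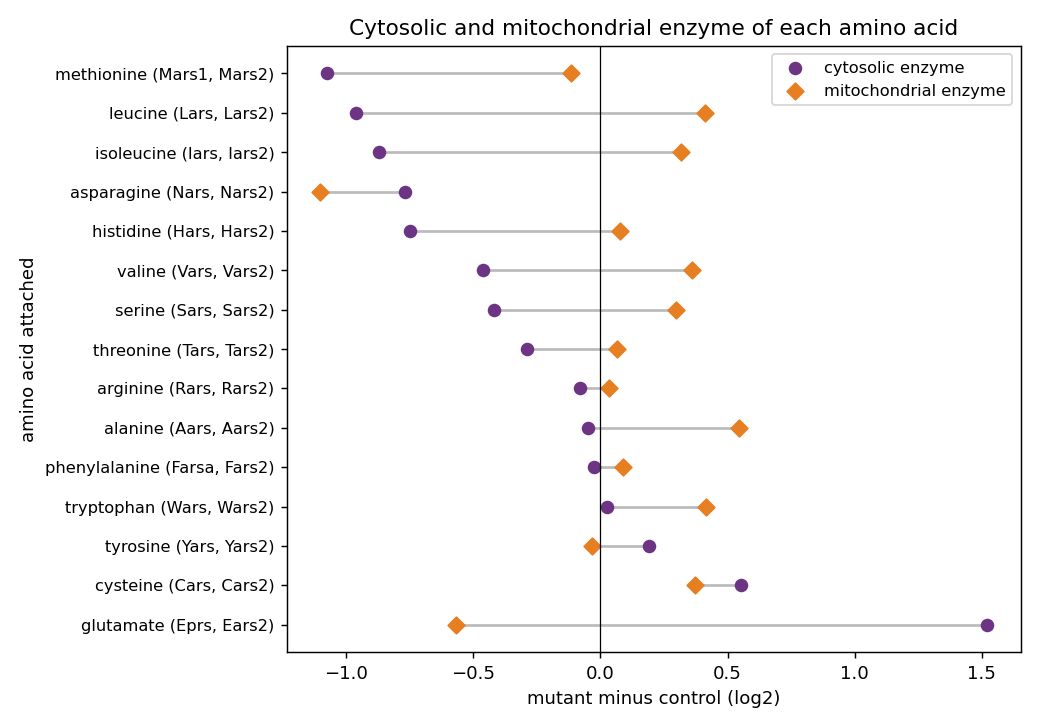
Difference of the cytosolic enzyme (purple circles) and the mitochondrial enzyme (orange diamonds) of each of 15 amino acids, mutant minus control on the log2 scale (horizontal axis), joined by a line and ordered by the cytosolic difference. The cytosolic circle lies left of the mitochondrial diamond in 11 of 15 pairs, and the glutamate pair (1.52 and -0.57) is the widest in the other direction. Each value is of the brightest probe set of its gene.

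In the multisynthetase complex, 10 genes were listed and 9 measured, with Qars and Eprs higher, Mars1 and Lars lower (44.4%, where 9.03% of all genes were called), and a median of -0.18. Eef1e1, which encodes a further scaffold, was not in this list and is given below among the partner genes. Iars (-0.87), Kars (-0.18) and Rars (-0.08) were not called, nor were the scaffold genes. Aimp1 read 6.90, 6.34 and 6.11 in mutants and between 6.97 and 7.002 in controls (-0.53, adjusted p = 0.172), with mutant 1 close to the controls. Aimp2 differed by -0.05 on its brightest probe set, and by 0.09 with quantile normalization. Of the 12 cytosolic genes outside the complex, Gars alone was called (8.33%), and the difference between these shares was not tested.

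Synthetases also fall into class I and class II, unrelated folds of the catalytic domain. Of 18 class I genes Qars was higher and Mars1 and Lars were lower, which was 16.7% where 9.03% of all genes were called. Of 15 measured class II genes Gars was lower, which was 6.67%. The medians were 0.03 for class I and -0.05 for class II, where that of all genes was 0.17. Eprs carries a domain of each class and was counted in neither.

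For 24 of the 36 genes there was more than 1 probe set, and in 14 of these the probe sets differed in sign. That was so in 6 of 11 cytosolic and 7 of 12 mitochondrial genes. In a fit over all 45101 probe sets, 4 of the 74 synthetase sets (5.41%) passed an adjusted p of 0.05, where 2.13% of all sets did. The 3 higher ones belonged to Qars and Eprs, where 1.33% of all sets were called higher, and the lower one to Mars1, where 0.8% were called lower.

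The probe sets of Eprs disagreed. Set 1426713_s_at, described above, differed by 1.52 (adjusted p = 0.048 over all probe sets), and set 1452158_at by 1.48 (adjusted p = 0.0462), with 9.93, 10.11 and 9.16 in mutants and 8.29, 8.23 and 8.24 in controls. Set 1452157_at read 8.09, 6.83 and 7.27 in mutants and 8.48, 8.60 and 8.67 in controls, a difference of -1.19 (adjusted p = 0.0789). In this set all mutants were below all controls, the reverse of the sets above, although the annotation gives the same source transcript for all 3. Set 1430370_at differed by -0.35 with overlapping groups.

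Qars was divided in the same way. Against the 2.31 of set 1456213_x_at, set 1456726_x_at read 8.03, 7.93 and 8.09 in mutants and 8.70, 8.75 and 8.66 in controls, a difference of -0.69 (adjusted p = 0.0747). All mutants were below all controls there too. Sets 1423712_a_at and 1453237_at differed by 0.33 and -0.54 and overlapped. Averaged over all probe sets of the gene, Eprs differed by 0.36 (adjusted p = 0.197) and Qars by 0.35 (adjusted p = 0.241), and neither was called. Which of their transcripts or exons each set reads was not analysed here.

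**Figure D4:**
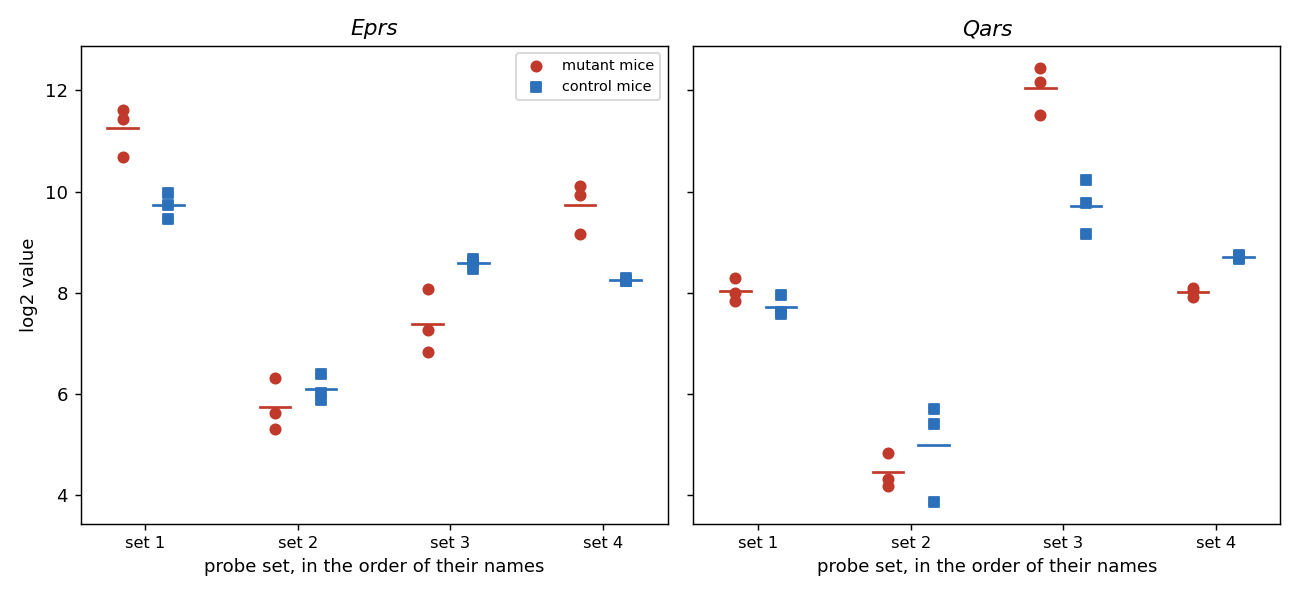
Log2 value (vertical axis) of the 4 probe sets of Eprs and of Qars (horizontal axis, in the order of their names) in each mouse, with mutants in red left of controls in blue and a line at each group mean. Sets 1 and 4 of Eprs and set 3 of Qars are higher in all mutants, whereas set 3 of Eprs and set 4 of Qars are lower in all mutants.

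Mars1, Lars and Gars each had a single probe set, so no second reading was at hand. Iars and Nars each had a second set that differed alike, by -0.97 and -0.81, and so did Cars, by 0.50. Hars did not: its second set read 6.80, 7.03 and 7.01 in mutants and 6.40, 6.49 and 6.56 in controls, a difference of 0.46 against -0.75 on the first. Farsb, a subunit of the phenylalanine enzyme, ranged from -1.04 to 0.73 over 4 sets. Among the mitochondrial genes Fars2 reached -1.25 on its second set (adjusted p = 0.077), and Lars2 reached 0.87 on a dim set near 5.2 in mutants and 4.3 in controls (adjusted p = 0.0536). Wars2 (0.42 and 0.35) and Hars2 (0.08 and 0.19) had both sets on the positive side.

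**Figure D5:**
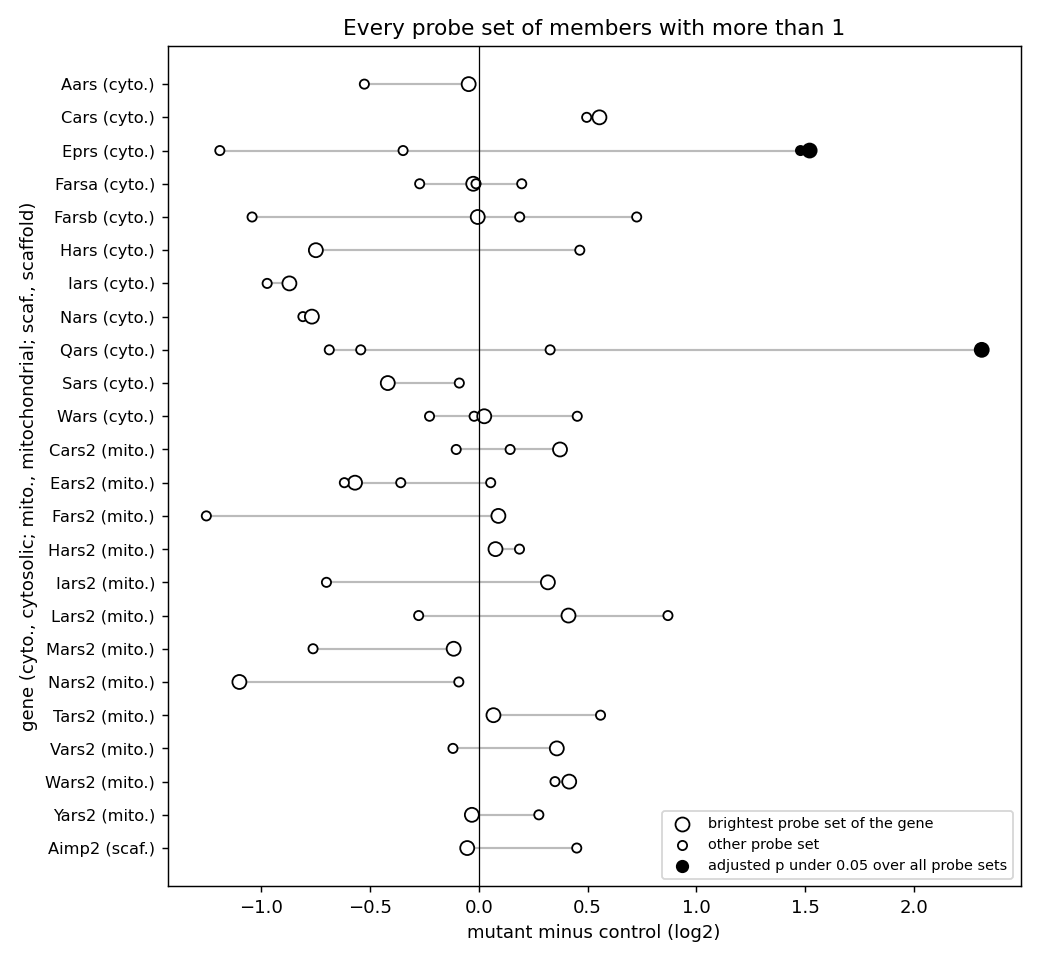
Difference of every probe set of the 24 genes with more than 1, mutant minus control on the log2 scale (horizontal axis), with 1 row per gene; large circles are the brightest set of a gene, small circles its others, and filled circles passed an adjusted p of 0.05 over all probe sets. Qars spans -0.69 to 2.31 and Eprs -1.19 to 1.52, and 14 of the 24 genes have sets on both sides of 0.

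Genes that work beside the synthetases were followed in a list of 17, of which 15 were measured. Of these 0 rose and 1 fell (6.67%, where 4.11% of all genes were called lower and 9.03% in either direction), with a median of -0.055. Dtd2, a deacylase that clears wrongly charged transfer RNA, read 6.22, 5.68 and 5.31 in mutants and 6.90, 6.75 and 6.94 in controls (-1.12, adjusted p = 0.0403). Eef1e1, the further scaffold of the complex (-1.33, adjusted p = 0.071), and Xpot, the exporter of transfer RNA from the nucleus (-0.60, adjusted p = 0.11), were below in every mutant but were not called. Aarsd1, an editing factor for alanyl-tRNA, was above in every mutant (0.69, adjusted p = 0.077).

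Of 28 other genes known as ATF4 targets, 26 were measured, and 1 rose and 1 fell, 7.69% of the list against 9.03% of all genes. Nupr1, a stress-induced chromatin protein, read 6.82, 7.14 and 7.11 in mutants and 6.12, 6.24 and 6.29 in controls (0.80, adjusted p = 0.0408). Atf5, a transcription factor of the mitochondrial stress response, read 8.23, 7.17 and 7.89 in mutants and 9.34, 8.93 and 9.68 in controls (-1.55, adjusted p = 0.0333). The list median was 0.17, the same as that of all genes. Asns, asparagine synthetase, read 6.93, 5.12 and 6.15 in mutants and 8.50, 7.58 and 6.38 in controls (-1.42, adjusted p = 0.153), and Atf4 itself differed by 0.30 (adjusted p = 0.497).

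Some markers of other liver cells differed with genotype. Of 10 sinusoidal endothelial markers 4 were higher and 0 lower (Stab1, Stab2, Ehd3 and Ptprb), a share of 40% where 4.92% of all genes were called higher. Pecam1 (0.20), Kdr (0.17), Clec4g (0.11) and Fcgr2b (-0.50) overlapped between the groups. The sum of the 10 signals on the linear scale ran from 5764 to 9680 in mutants and from 2603 to 4646 in controls. Of 10 Kupffer cell markers Clec4f alone was higher (10%), with sums of 2728 to 4415 in mutants and 1335 to 2613 in controls. Of 4 bile duct markers Krt19 alone was higher (25%), with sums of 315 to 419 in mutants and 238 to 268 in controls. Each of these shares rests on 1 gene and stands beside the 4.92% of all genes called higher. None of 7 stellate cell, 6 lymphocyte and 2 red cell markers was called by limma, with 1, 0 and 0 at an unadjusted p under 0.05 and medians of 0.01, 0.14 and -0.16. Of 10 hepatocyte markers none was called by limma and none had an unadjusted p under 0.05, with sums of 64979 to 84888 in mutants and 82133 to 85489 in controls. The difference was negative for 9 of the 10, with a median of -0.24. No marker was at 0 in any liver, and the part of these cell types in the synthetase values was not tested.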

How the data were processed

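Liver RNA of 3 mutant and 3 control mice was measured with 1 Affymetrix mouse array each, grouped by their labels. The authors normalized the probes in dChip and summarized them by the perfect-match model, and the log2 values per probe set were used as deposited. Probe set names are of a mouse array, although the methods name an array of C. elegans. No source used here gives the dChip version. No detection calls came with the values, so signal over background is unknown. Of 45101 probe sets, 932 with several symbols and 9211 with none were left out of the gene comparison, and the probe set of highest mean stood for each of 18194 genes. Genes, and separately all probe sets, were compared by limma (version 3.58.1, R 4.3.3; lmFit, eBayes) without covariates, after a test on simulated data, with p-values adjusted by Benjamini-Hochberg and a threshold of 0.05. Single values were compared by exact two-sided permutation of the 20 assignments of 3 mice against 3. The p-values measure the spread between these mice.

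Full statistics were given for synthetase genes past the adjusted p in either fit, with those of smallest p or without overlap as examples, and for genes of the related lists past it; Iars2, Yars2, Asns, Atf4, Eef1e1, Xpot, Aarsd1 and the second sets of other genes were added after their values were seen. The genes and lists were chosen with earlier results of these data known. The alternatives were quantile normalization, median centring, the mean of all probe sets, genes above the median brightness alone, trended and robust eBayes, age as a covariate, a block for the replicate number and leaving out each mouse. The fit without both mutant 2 and control 3 was chosen after the data were seen. Promoters were taken from RefSeq, 1 further stretch of promoter sequence is not reported here, and figures were drawn with matplotlib 3.10.9.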

Additional observations from a re-analysis of the deposited data

Results flagged for a closer look

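The bacterial transcripts spiked into the hybridization, which the comparison of genes does not use, were brighter on every mutant array than on every control array. BioB was higher by 1.81 on the log2 scale, at 10.41, 11.04 and 10.70 in mutants and 9.13, 8.93 and 8.67 in controls. BioC was higher by 1.66 and BioD by 1.43. An exact two-sided permutation test gave p = 0.1 for each, the smallest that 3 mice against 3 allow. The signal of the 3′ Gapdh control probe set minus that of the 5′ one was 0.45, -1.06 and -1.78 in mutants and 2.31, 2.02 and 2.30 in controls. That of Actb was 2.60, 3.95 and 4.50 in mutants and 3.82, 3.90 and 3.11 in controls, and overlapped. The part of any of these in the synthetase values was not tested.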

How the results depend on the processing

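Of the 5 called genes, none changed sign under any of the 14 alternatives, but most of these could not change it. The groups of these genes did not overlap, so leaving out mice kept the sign. The replicate block, the trend and robust options and the choice of bright genes left each difference as it was. The 2 cytosolic genes called higher became 0 with the mean of all probe sets, 0 with a replicate block and 0 without both mutant 2 and control 3, and 0 to 2 without each mouse in turn. The 3 called lower became 0 with the replicate block and 0 without both mutant 2 and control 3, and 0 to 6 without each mouse. The replicate block left 0 of all genes called by limma, with 4363 at an unadjusted p under 0.05, of them 9 cytosolic and 2 mitochondrial. Deviations of same-numbered mice correlated at 0.18, -0.48 and -0.48, and those of mutant 3 and its concurrent control 1 at 0.35. The block follows the numbers and so does not hold that pair. Deviations within a group sum to 0, so these correlations depend on each other and do not settle the pairing. The count of mitochondrial genes called higher, 0, became 1 among bright genes alone, and that called lower, 0, became 1 with median centring, among bright genes alone, with trend and robust options and with age as a covariate, and was 0 to 1 without each mouse. The cytosolic median ran from -0.39 to -0.075 without each mouse. The mitochondrial median of 0.09 became 0.14 with quantile normalization, -0.072 with median centring, 0.30 among bright genes alone and 0.22 with age as a covariate, and was 0.096 to 0.42 without each mouse. Of the synthetase probe sets, the 3 higher became 1 with median centring, 0 with the replicate block, 0 without both mutant 2 and control 3 and 0 to 2 without each mouse. The 1 lower became 0 with quantile normalization, 0 with median centring, 2 with trend and robust options, 0 with the replicate block, 3 with age, 0 without both mutant 2 and control 3 and 0 to 12 without each mouse, the 12 without mutant 1. Over all genes, 1643 were called as reported, 502 with the mean of all probe sets, 106 without mutant 2, 5 without control 1 and 0 without control 2, where 3861 had an unadjusted p under 0.05. The causes were not tested. With 3 arrays a group, precision is limited throughout.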

Other observations

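The probe set that Aars shares with Exosc6, a subunit of the RNA exosome, read 7.26, 8.11 and 8.10 in mutants and 8.02, 8.12 and 7.87 in controls, with mutant 1 alone below the rest. Among the other genes of the aminoacylation list, Prorsd1 differed by -0.98 (adjusted p = 0.0661) and Gatc, a subunit of the amidotransferase that makes mitochondrial glutaminyl-tRNA, by -0.43 (adjusted p = 0.14), each with every mutant below every control, while its partner subunits Gatb (0.11) and Qrsl1 (-0.25) overlapped. Pstk, a kinase on the path to selenocysteinyl-tRNA, was above in every mutant (0.57, adjusted p = 0.144), and Sepsecs, the enzyme of the next step, differed by -0.055. None of these passed the test.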
